A study of Homo sapiens with 4 samples.

Results

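The genes described here are guanine nucleotide exchange factors of the RhoA, Rac and Cdc42 family (RhoGEFs) other than the known direct effectors of Gα13. They were taken by symbol from the deposited expression table of NUDUL1 cells: every ARHGEF gene except ARHGEF1, ARHGEF11 and ARHGEF12, every DOCK gene and the VAV genes, if listed above 0 in at least 2 of the 4 libraries. Of 29 such symbols, 24 passed, among 16945 genes that passed the same filter and 25066 listed. The members were 12 ARHGEF, 9 DOCK and 3 VAV genes. NUDUL1 is a human line of diffuse large B cell lymphoma of the germinal center type, engineered to carry inducible Cas9 and to express the thromboxane receptor Tbxa2r, which couples to Gα13. Cells were given either a control sgRNA or a GNA13 sgRNA, with 2 libraries for each, labelled control and GNA13-deficient. All 4 libraries came from cells treated with 10 nM U46619, a stable thromboxane-A2 analog, for 24 h, so that the comparison was between genotypes under stimulation and held no untreated cells. The Cas9 line was derived from a single clone and each genotype rests on 1 sgRNA. The labels describe duplicates without saying that they were separate cultures, so p values measure the spread between these libraries, which may be technical.

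GTPases of the RhoA, Rac and Cdc42 family switch between an inactive GDP-bound and an active GTP-bound form, and RhoGEFs activate them by driving out GDP. ARHGEF and VAV proteins do this through a Dbl homology domain and DOCK proteins through an unrelated domain, and members differ in whether they act on RhoA, Rac or Cdc42. Gα13 couples to this system through ARHGEF1, ARHGEF11 and ARHGEF12, whereas the remaining families are fed by antigen receptors, chemokine receptors, adhesion and microtubules. In lymphocytes, DOCK2, DOCK8 and VAV1 are best known for their parts in migration, synapse formation and antigen receptor signaling.

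Depth was similar in the libraries, with 29209544 and 31537955 mapped reads in control replicates 1 and 2 and 30141459 and 29685942 in GNA13-deficient replicates 1 and 2. B cell identity was checked with 8 markers, all of which had at least 1145 reads in every library, with CD79B the most abundant at 18406, 20831, 17208 and 19198 reads in the same order. T and NK cell markers held 7 to 14 reads in all per library, with CD3D, CD3E and CD2 at 0 throughout. Markers of myeloid cells were not level between genotypes, summing to 224 and 246 reads in control and 29 and 25 in GNA13-deficient libraries. Their most abundant gene was ITGAM, at 125 and 145 reads against 3 and 4. CD14 had at most 2 reads in a library, and S100A8 and S100A9 were at 0. Stromal and endothelial markers summed to 121 and 119 reads against 28 and 26, with PECAM1 at 112 and 115 against 11 and 16, and CDH5 and KDR at 0. LYZ, ITGAM and PECAM1 were lower with an adjusted p under 0.05, and the part of these markers in the results below was not tested. CD8A had 5 reads in each control library and 0 in both GNA13-deficient libraries, and passed the filter only through control, so that no call is read from it.

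The targeted gene was measured first. GNA13 had log2 values of 12.46 and 12.45 in the control libraries and 13.10 and 13.11 in the GNA13-deficient libraries, 0.65 higher (standard error, SE, 0.05; adjusted p = 0.00214). Small insertions or deletions made by Cas9 can disrupt a protein without lowering its mRNA, so this level does not check the labels, on which the directions given here rest. In bulk RNA, a change in the share of cells that express a gene and a change in RNA per cell cannot be told apart.

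Among the 24 members, 9 differed between genotypes with an adjusted p under 0.05 in limma, a linear model fitted on the deposited log2 values of all 16945 genes. Members higher in GNA13-deficient cells included DOCK10, VAV1, ARHGEF3 and DOCK2, and those lower were ARHGEF17, ARHGEF5L, ARHGEF7 and DOCK6. The share called was 37.5% of the members, and across all genes tested it was 29.7%. Of the members, 66.7% lay at or above the median level of all genes tested. Under the alternative filter at the median level, 8 of 18 members and 4466 of 9344 genes were called, so the members' larger share was not kept there. The 5 higher members were 20.8% of the family (13.1% of all genes were called higher) and the 4 lower members were 16.7% (16.6% of all genes were called lower). Both libraries of one genotype lay outside both of the other for 16 members (66.7%), and for 65.3% of all genes. The median log2 difference of the members was 0.02, against -0.02 for all genes tested, and the median size of the difference without its sign was 0.35 in both.

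**Figure D1:**
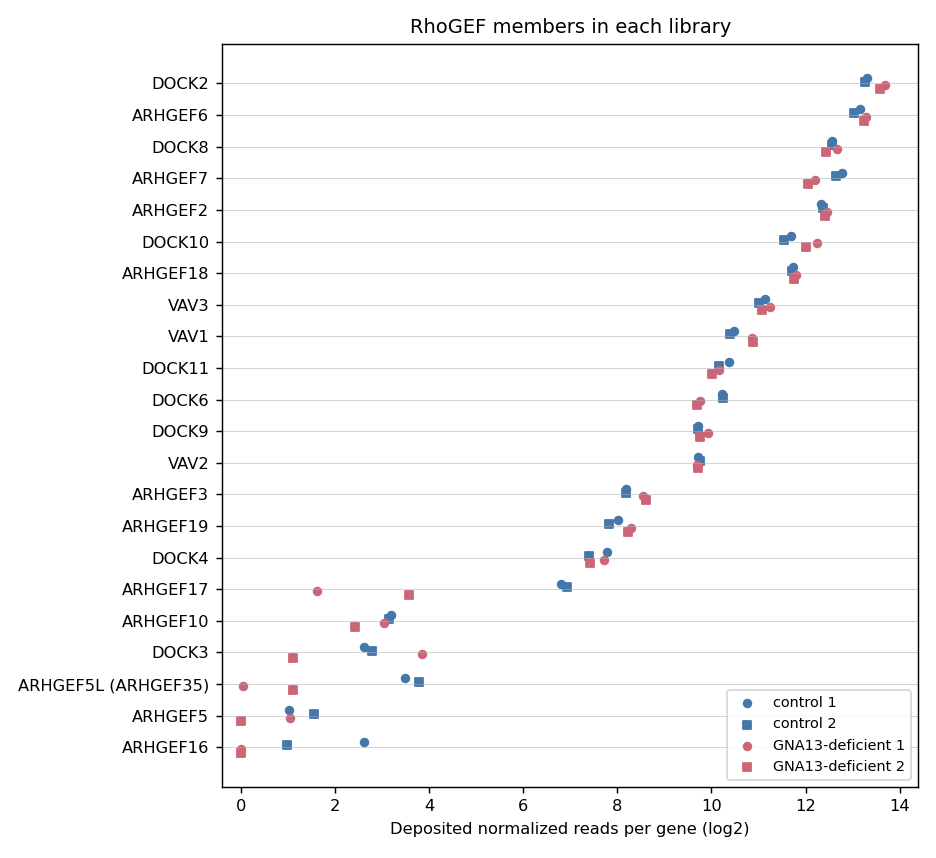
Deposited log2 normalized reads (horizontal axis) of 22 members in each of the 4 libraries, with members ordered by mean level; circles are replicate 1 and squares replicate 2, and no error bar is drawn because every library is shown. The wide separation of the genotypes is at ARHGEF17 and ARHGEF5L among the low genes, while members above a log2 value of 8 differ by less than 1 unit.

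These calls rest on few libraries. With any 1 of the 4 libraries left out, a single residual degree of freedom remained and no member and no gene of the whole table passed the threshold (9 to 11 members and 5257 to 5600 genes had an unadjusted p under 0.05), while each of the 9 called members kept its direction. Scaling mattered for the split: of all genes called, 44.03% were higher with the deposited scaling and 69.14% after each library was centred on its median, which moved the median of all genes to 0.18 and the count of called members to 15, with 11 higher and 4 lower. After centring, 62.5% of the members and 36.8% of all genes were called, 45.8% and 25.4% higher and 16.7% and 11.4% lower, so the distance between the members and all genes depends on the scaling. The members added by centring were ARHGEF2, ARHGEF6, ARHGEF18, ARHGEF19, DOCK9 and VAV3. With no filter on low values 3 members passed (ARHGEF3, DOCK6 and VAV1), and without the mean-variance trend 2 passed (ARHGEF5L and DOCK6).

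Of the DOCK family, DOCK2 and DOCK10 were higher in GNA13-deficient libraries and DOCK8 and DOCK11 did not pass the test. DOCK2, the main Rac activator of lymphocytes, had log2 values of 13.30 and 13.27 in control and 13.69 and 13.58 in GNA13-deficient libraries. Both GNA13-deficient values lay above both control values, with a difference of 0.35 (SE 0.07, adjusted p = 0.018), or 1.27-fold. The call was lost under quantile normalization, where the difference was 0.19 (adjusted p = 0.0948). DOCK8, a Cdc42 activator whose loss causes an immunodeficiency, had 12.56 and 12.57 in control and 12.68 and 12.43 in GNA13-deficient libraries. Its GNA13-deficient values fell on either side of the controls, and the difference was -0.01 (95% interval -0.25 to 0.23), which also turned positive after median centring (0.20).

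DOCK10 and DOCK11, related Cdc42 activators, did not move alike. DOCK10 had 11.69 and 11.55 in control and 12.25 and 12.02 in GNA13-deficient libraries and rose by 0.52 (SE 0.10, adjusted p = 0.0203), the largest rise among the called members. The genotypes did not overlap, and the gap between them exceeded the larger difference between replicates, 0.24. DOCK11, on the X chromosome, had 10.38 and 10.16 in control and 10.17 and 10.02 in GNA13-deficient libraries, and the genotypes overlapped. The difference was -0.17 (95% interval -0.44 to 0.09, adjusted p = 0.277), and it turned to 0.04 after median centring.

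DOCK6, an activator of Rac and Cdc42, was lower in GNA13-deficient libraries. It had 10.22 and 10.24 in control and 9.76 and 9.71 in GNA13-deficient libraries and fell by 0.50 (SE 0.06, adjusted p = 0.00554). Its replicates differed by 0.05 in GNA13-deficient libraries and by less in control, and it held its call under all 10 alternatives that kept the 4 libraries. Several DOCK members did not pass. DOCK9, a Cdc42 activator, had a difference of 0.13 (95% interval -0.08 to 0.34) and DOCK4, a Rac activator, one of -0.02 (-0.53 to 0.48). DOCK3, known mainly from neurons, had 6 and 7 reads in control and 14 and 2 in GNA13-deficient libraries, so that its replicates differed more than its genotypes.

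The VAV proteins link the B cell receptor to the activation of Rac and RhoA. VAV1, restricted to blood cells, had log2 values of 10.48 and 10.40 in control and 10.86 and 10.88 in GNA13-deficient libraries. It rose by 0.43 (SE 0.06, adjusted p = 0.00724), or 1.35-fold, without overlap. VAV2 had 9.71 and 9.75 against 9.69 and 9.72, a difference of -0.03 with an interval from -0.19 to 0.14, and turned to 0.03 under quantile normalization and 0.18 under median centring. For VAV3 the values were 11.15 and 11.02 against 11.25 and 11.07, which overlap, and the difference was 0.08 (95% interval -0.15 to 0.31). VAV1 alone of the 3 passed with the deposited scaling, and VAV3 passed after median centring (adjusted p = 0.0413).

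DOCK2 and VAV1 were the called members at or above the median level for which RefSeq lists a single promoter, and their sequences are shown because both genes are active mainly in blood cells and both were higher in GNA13-deficient libraries. Each window runs from 250 bases before to 50 bases after the listed start, on the plus strand of GRCh38.p14, at chr5:169637025-169637324 for DOCK2 and chr19:6772458-6772757 for VAV1. Capitals mark matches to the letters searched.
DOCK2: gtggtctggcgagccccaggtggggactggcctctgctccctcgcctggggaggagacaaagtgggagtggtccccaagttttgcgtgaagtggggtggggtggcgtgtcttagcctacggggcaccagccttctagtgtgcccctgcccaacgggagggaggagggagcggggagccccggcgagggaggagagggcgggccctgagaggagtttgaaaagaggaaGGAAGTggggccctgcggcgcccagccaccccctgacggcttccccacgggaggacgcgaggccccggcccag
VAV1: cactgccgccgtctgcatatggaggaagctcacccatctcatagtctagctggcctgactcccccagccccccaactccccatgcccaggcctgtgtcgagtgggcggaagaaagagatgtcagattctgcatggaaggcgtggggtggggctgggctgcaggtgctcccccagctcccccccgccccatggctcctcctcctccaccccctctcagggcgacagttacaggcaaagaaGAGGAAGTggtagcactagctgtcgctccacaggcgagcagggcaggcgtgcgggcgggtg
Letters were searched on both strands for 9 motifs. The window of VAV1 held GAGGAAGT, the core bound by the myeloid and B cell factor PU.1, from base 240 of the 300, and this match contains the shorter ETS family core GGAAGT. DOCK2 held GGAAGT from base 228. Of 35116 promoter windows listed, 2.59% held GAGGAAGT and 22.79% held GGAAGT, the latter added after the sequences had been seen. Neither window held the octamer ATGCAAAT (1.77% of windows), the RUNX core TGTGGT (13.07%), the longer ETS core CCGGAAGT (4.14%), the E-box CACGTG (7.26%), the E2F letters TTCCCGCC (3.16%), the FOXO letters TGTTTAC (3.42%) or the CRE TGACGTCA (1.85%). GC content was 69.7% for DOCK2 and 65.0% for VAV1, against a median of 58.7% over all windows. A match of letters shows no binding. Promoter windows were listed for 19 of the 24 members.

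Among the ARHGEF members, the PIX pair had the highest levels per length in control. ARHGEF7 (beta-PIX) and ARHGEF6 (alpha-PIX) are exchange factors for Rac and Cdc42 that bind the PAK kinases. ARHGEF7 had log2 values of 12.77 and 12.64 in control and 12.20 and 12.06 in GNA13-deficient libraries and fell by 0.58 (SE 0.08, adjusted p = 0.00741), to 0.67 of the control level. ARHGEF6, on the X chromosome, had 13.15 and 13.04 against 13.29 and 13.24. Its genotypes did not overlap, but the difference of 0.16 (95% interval -0.01 to 0.33) did not pass (adjusted p = 0.128), though it did after median centring (adjusted p = 0.0128).

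RhoA-directed members of high level showed small differences. ARHGEF2, released from microtubules when they depolymerize, had 12.33 and 12.38 in control and 12.45 and 12.42 in GNA13-deficient libraries (difference 0.08, 95% interval -0.06 to 0.21). ARHGEF18, active at cell junctions, differed by 0.05 (-0.08 to 0.18). Both reversed by less than 0.02 under quantile normalization. ARHGEF3, which acts on RhoA and RhoB, had 8.19 in both control libraries and 8.54 and 8.61 in GNA13-deficient libraries and rose by 0.39 (SE 0.09, adjusted p = 0.0348). ARHGEF19 had 8.01 and 7.82 against 8.29 and 8.24. It lay close to ARHGEF3 in level and in difference (0.34, SE 0.12) and did not pass (adjusted p = 0.0887), though it did under quantile normalization, median centring and the filter at the median level.

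The widest differences were in members of low level. ARHGEF17, a RhoA factor, had 110 and 124 reads in control and 3 and 11 in GNA13-deficient libraries, or log2 values of 6.81 and 6.93 against 1.62 and 3.57. The genotypes were far apart, but the GNA13-deficient replicates also differed from each other by 1.94. It fell by 4.28 (SE 0.69, adjusted p = 0.0119), and the reads summed per genotype gave a ratio of 16.5 (95% counting interval 9.62 to 30.6, by an exact binomial method, counting error only). The difference was -3.30 without GNA13-deficient replicate 1, -5.25 without GNA13-deficient replicate 2 and -2.91 with a pseudocount of 10, and the call was lost with no filter (adjusted p = 0.125) and no variance trend (0.0547). ARHGEF5L, the listed name for ARHGEF35 (Entrez 445328), had 11 and 14 reads in control and 1 and 2 in GNA13-deficient libraries. It fell by 3.06 (SE 0.50, adjusted p = 0.0128), and its reads gave a ratio of 8.21 with a counting interval of 2.50 to 42.5. With a pseudocount of 10 the difference was -0.96, and without a GNA13-deficient library it was -2.53 or -3.60. ARHGEF35 lies near its longer relative ARHGEF5 on chromosome 7, and reads could be split between such similar copies, which leaves both uncertain. ARHGEF5 itself had 2 and 3 reads against 2 and 0.

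ARHGEF16, which acts on RhoG, was just inside the filter, with 6 and 2 reads in control and 0 in both GNA13-deficient libraries. It passed the filter only through the control libraries, where it was higher, so that no fold or call is read from it. ARHGEF10 had 9 and 9 reads in control and 8 and 5 in GNA13-deficient libraries. Outside the filter were DOCK1, with 2 reads in control replicate 2 alone, DOCK5, with 1 read in GNA13-deficient replicate 1, and ARHGEF4, ARHGEF10L and ARHGEF15, listed at 0 in every library. A value of 0 in control replicate 2 can stand for 1 read, since 1 read there has a log2 value of -0.02, under the lowest listed value.

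**Figure D2:**
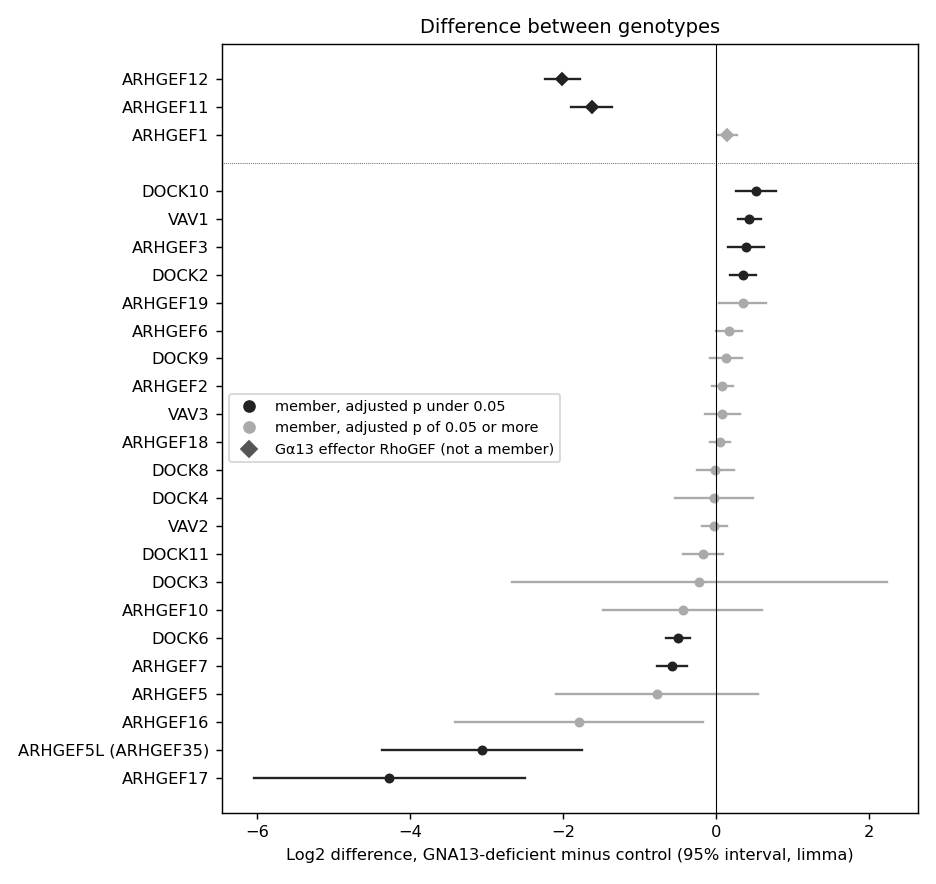
Log2 difference between genotypes (horizontal axis, GNA13-deficient minus control) with its 95% interval from limma for 22 members, sorted, and above the dotted line for the 3 Gα13 effector RhoGEFs; black marks an adjusted p under 0.05. ARHGEF17 and ARHGEF5L sit far to the left with wide intervals, the other called members shown lie between -0.58 and 0.52, and ARHGEF11 and ARHGEF12 lie below every abundant member.

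Gα13's own effectors served as the comparison. ARHGEF12 had log2 values of 11.02 and 11.20 in control and 9.15 and 9.05 in GNA13-deficient libraries and fell by 2.01 (SE 0.09, adjusted p = 0.000926). ARHGEF11 had 9.30 and 9.44 against 7.81 and 7.68 and fell by 1.63 (SE 0.10, adjusted p = 0.00157). Both kept their call in all 10 alternatives with 4 libraries. ARHGEF1, the effector used by germinal center B cells, had 11.84 and 11.81 against 11.97 and 11.97, a difference of 0.15 (95% interval 0.02 to 0.27) that did not pass (adjusted p = 0.0856), though it did after median centring (adjusted p = 0.00957). No member at or above the median level of all genes differed by as much as ARHGEF11 or ARHGEF12, and the gap between the 2 sets was not tested.

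A log2 ratio of a pair of genes within a library does not depend on a constant by which the library was scaled. ARHGEF7 over ARHGEF6 was -0.39 and -0.40 in control and -1.09 and -1.18 in GNA13-deficient libraries, a shift of -0.74. DOCK10 over DOCK11 went from 1.31 and 1.39 to 2.09 and 2.00, a shift of 0.69. In both of these pairs the shift was several times the difference between replicates. Smaller shifts were seen for DOCK2 over DOCK8, from 0.74 and 0.70 to 1.01 and 1.15, and for VAV1 over VAV3, from -0.67 and -0.62 to -0.39 and -0.19. Against ARHGEF1, ARHGEF12 shifted by -2.16 and ARHGEF11 by -1.78. All 7 ratios examined had no overlap between genotypes, but every ratio held a called gene, and 65.3% of all genes did not overlap. An exact two-sided permutation test with 2 libraries per genotype cannot give a p under 0.333, which each ratio reached.

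**Figure D3:**
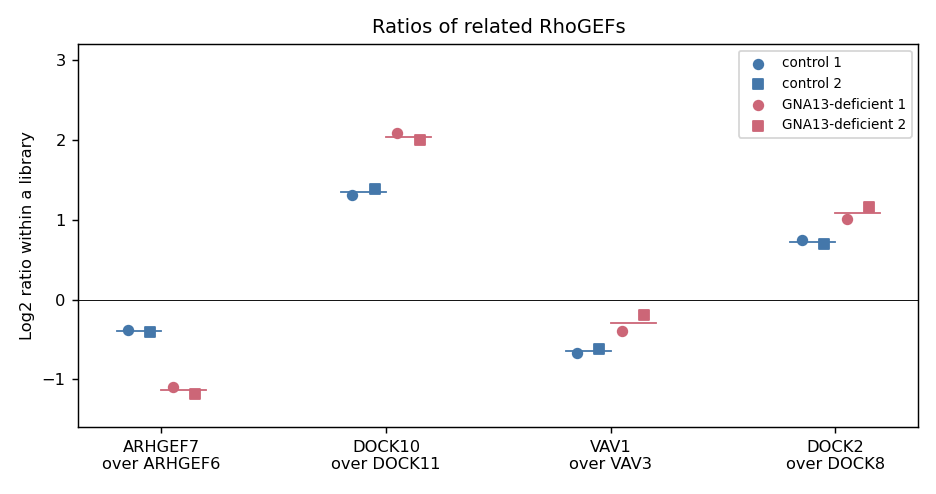
Log2 ratio of 2 related RhoGEFs within each library (vertical axis) for 4 pairs, with control libraries in blue, GNA13-deficient libraries in red and a short line at each genotype's mean. The genotypes are separate in all 4 pairs, most widely for ARHGEF7 over ARHGEF6 and DOCK10 over DOCK11.

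Levels were compared between genes per length, as recovered reads per kilobase of the longest annotated transcript, scaled to the mapped reads (RPKM). ARHGEF6 had RPKM values of 63.1 and 55.9 in control and DOCK2 56.0 and 52.4, so that they overlapped and their order could not be told. In GNA13-deficient libraries they also overlapped, at 66.4 and 62.2 for ARHGEF6 and 70.3 and 63.2 for DOCK2. ARHGEF7 came next by its control mean, at 42.4 and 37.2, just above ARHGEF2 at 36.7 and 36.3, a gap smaller than that between the replicates of ARHGEF7. In GNA13-deficient libraries it was at 27.5 and 24.2, below ARHGEF2 at 38.3 and 36.3. Then came DOCK8, ARHGEF18, VAV1, VAV3 and DOCK10, with control means from 21.5 down to 14.2. The last 6 of the 24 members had control means under 0.5. Summed over all members, the level was 320 and 294 in control and 336 and 305 in GNA13-deficient libraries, which overlap.

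Within each family the shares of some members differed between genotypes. ARHGEF7 made up 25.3% and 24.3% of the summed ARHGEF level per length in control and 17.4% and 16.4% in GNA13-deficient libraries, while ARHGEF6 went from 37.6% and 36.5% to 42.1% and 42.3%. DOCK2 made up 48.4% and 48.8% of the DOCK level in control and 51.5% and 53.2% in GNA13-deficient libraries, DOCK10 13.2% and 12.2% against 15.8% and 14.9%, and DOCK8 18.9% and 19.7% against 16.7% and 15.7%. VAV1 rose from 44.5% and 44.6% of the VAV level to 49.8% and 52.4%. None of these shares overlapped between genotypes, and the levels of 65.3% of all genes did not overlap either. Differences in share were not tested. Shares within a family are bound to each other, so a higher share of DOCK2 lowers the others.

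**Figure D4:**
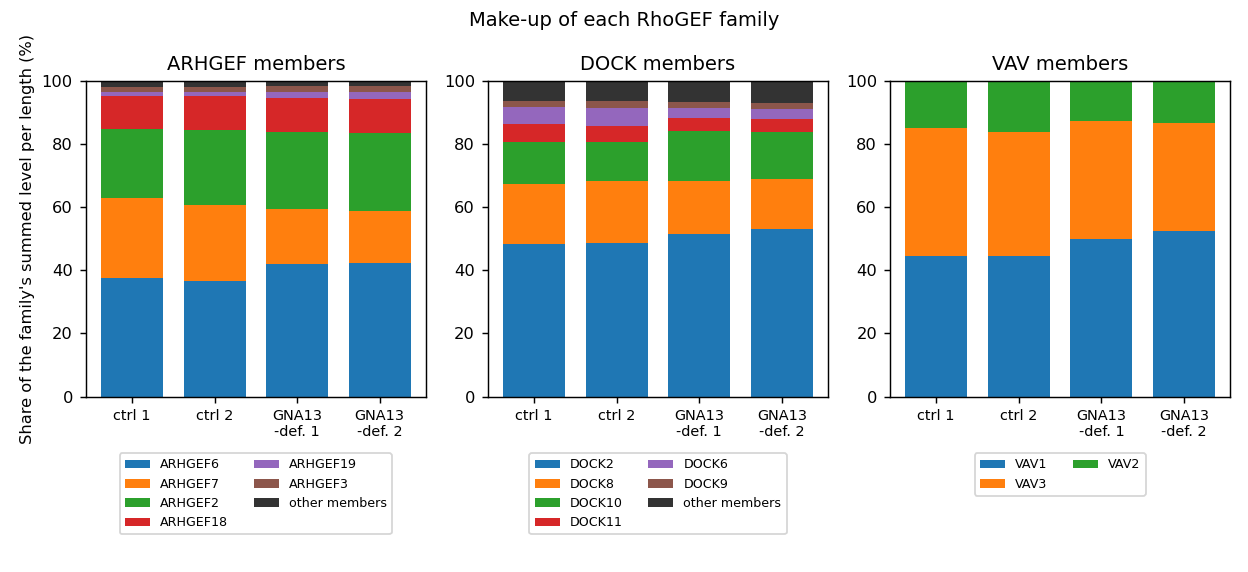
Share of each member in the summed level per length of its family (vertical axis, percent) in the 4 libraries, with members under 1% in control replicate 1, and those not reported here, joined as other members. The ARHGEF7 block shrinks from 25.3% and 24.3% in control to 17.4% and 16.4% in GNA13-deficient libraries, and the VAV1 block grows.

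Positions on hg19 were read from GENCODE. ARHGEF7 lies on chromosome 13 from 111766906 to 111958084, and ARHGEF17 on chromosome 11 from 73019321 to 73080433, both on the plus strand and both with antisense genes annotated within their span. DOCK6 spans 11309971 to 11373200 of chromosome 19 (minus strand), with ANGPTL8 on the other strand inside it. DOCK10, on chromosome 2 from 225629807 to 225907185, and VAV1, on chromosome 19 from 6772719 to 6857377, had no overlapping gene. The kit kept strand, but whether reads were counted by strand is not given in the sources used here, so antisense reads cannot be told apart.

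Of the ARHGEF genes, 8 are listed in the table under other names and so fell outside the symbol pattern; they were looked up by Entrez ID after the table had been seen. ARHGEF39, listed as C9orf100, had the most reads, with log2 values of 8.41 and 8.19 in control and 8.70 and 8.57 in GNA13-deficient libraries, and did not pass (difference 0.33, adjusted p = 0.101). ARHGEF37, listed as FLJ41603, fell by 1.63 (SE 0.38, adjusted p = 0.0344) at low values of 3.93 and 4.37 against 2.36 and 2.69. ARHGEF40, ARHGEF25 and ARHGEF33 did not pass, and ARHGEF26, ARHGEF28 and ARHGEF38 were listed at 0 throughout. With 5 of the 8 tested, 1 was called with the deposited scaling, 3 under quantile normalization and 4 after median centring. Of all 16945 genes, 5037 (29.7%), 5288 and 6235 (36.8%) were called in the same order.

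Other RhoGEFs were read from a list of 43, of which 40 were tested. In that list 6 were higher and 16 lower (55.0% called, against 29.7% of all genes), with a median difference of -0.30. FGD5 fell by 2.89 and PLEKHG5 fell by 2.12, both of low level. MCF2L, with 13 and 7 reads in control and 2 and 0 in GNA13-deficient libraries, passed the filter only through control and is counted without its difference being read. BCR fell by 1.16 (12.84 and 12.90 against 11.73 and 11.69) with PREX1, a Rac factor, falling by 1.17. ECT2, which drives cytokinesis, rose by 0.83, and the Rac factor TIAM1 rose by 0.46. Among the ARHGAP genes, which switch these GTPases off, 5 were higher and 6 lower of 21 tested (52.4%). The widest of these were ARHGAP21, which fell by 4.22, ARHGAP10, which fell by 3.91, and ARHGAP18, which fell by 3.53.

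Of 17 RhoA, Rac and Cdc42 family GTPases tested, 2 were higher and 4 lower (35.3% called, against 29.7% of all genes). RAC2, the blood cell form of Rac, rose by 0.77 (11.60 and 11.72 against 12.43 and 12.44), while RAC1 fell by 0.29 (13.07 and 13.21 against 12.81 and 12.89). RHOU fell by 2.67 and RHOH, which lacks GTPase activity, fell by 0.68. RHOC also fell, from 9.02 and 9.18 in control to 7.54 and 7.67 in GNA13-deficient libraries. Neither RHOA nor CDC42 passed. Of the dissociation inhibitors, ARHGDIA rose by 0.30.

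Partners of the DOCK and VAV members were read from a pair of lists. Their counts stand beside the 13.1% of all genes called higher and 16.6% called lower. In the list of 10 DOCK partners, none was higher and 4 were lower (40.0% called). BCAR1, an adhesion adaptor counted among the lower genes, had 45 and 42 reads in control and 0 and 2 in GNA13-deficient libraries, and passed the filter only through control, so that its difference is not read. MOB1B (listed as MOBKL1A) fell by 0.46, LRCH1 fell by 0.37 and ELMO1, the main partner of DOCK2, fell by 0.30 (12.05 and 12.21 against 11.84 and 11.82, adjusted p = 0.0352). Of 12 VAV partners, 2 were higher and 6 lower (66.7% called). BTK, a kinase of the B cell receptor pathway, rose by 0.36. LCP2 fell by 3.49, SH3BP2 fell by 3.27 and CR2 fell by 1.75. Among effectors, 8 were higher and 11 lower of 37 tested (51.4% called). NCKAP1, a subunit of the WAVE complex through which Rac acts, fell by 3.75, its partner CYFIP1 fell by 2.64, and CDC42EP1, an effector of Cdc42, had 14 and 17 reads in control and 1 in each GNA13-deficient library, at low depth. CYFIP2, the related subunit, rose by 0.25, and WAS, the blood cell effector of Cdc42, rose by 0.38.

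**Figure D5:**
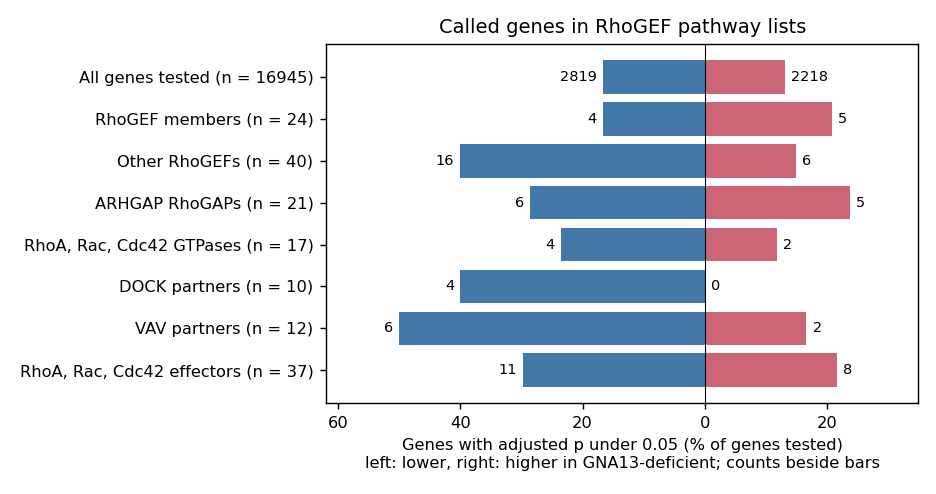
Share of tested genes with an adjusted p under 0.05 (horizontal axis, percent) that were lower (blue, left) or higher (red, right) in GNA13-deficient libraries, for all genes, the members and 6 RhoGEF pathway lists, with counts beside the bars. The members show 4 lower and 5 higher genes, while the other RhoGEFs show 16 lower and 6 higher.

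Reference genes were not level between the genotypes. GAPDH was 16.09 and 16.29 in control and 16.61 and 16.74 in GNA13-deficient libraries (difference 0.49, adjusted p = 0.0502, under 0.05 in 8 of 10 alternatives), and ACTB was 17.65 and 17.80 against 18.05 and 18.12 (difference 0.37, adjusted p = 0.205, under 0.05 in 3 of 10 alternatives). Relative to GAPDH, DOCK10 was at -4.40 and -4.75 on the log2 scale in control and -4.36 and -4.72 in GNA13-deficient libraries, which overlap. VAV1, ARHGEF3 and DOCK2 also overlapped between genotypes relative to GAPDH, so the rise of these 4 members depends on the scale to which they are referred. ARHGEF17, ARHGEF5L, ARHGEF7 and DOCK6 were also lower in both GNA13-deficient libraries relative to GAPDH. That outcome was fixed in advance, since these genes were lower and GAPDH was higher there without overlap. It therefore adds nothing on their falls. This scale was chosen after the values had been seen and was not tested.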

How the data were processed

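RNA sequencing reads of NUDUL1 cells were aligned by the authors to hg19 with STAR; the processing notes also name HTSeq, and versions and annotation are not given in the sources used here. The authors deposited log2 normalized reads per gene, with a row of mapped totals. On the linear scale all values of up to 400 reads were whole multiples of 1 constant per library (100%, tolerance 0.05 reads plus rounding), and the recovered reads gave depth, counting intervals and levels per length. Replicates differed by more than counting noise (chi-square per degree of freedom 12.8 and 12.4).

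Genes above 0 in at least 2 libraries were compared with limma 3.58.1 in R 4.3.3 (lmFit, eBayes with a mean-variance trend, genotype as the only term), with Benjamini-Hochberg adjustment over all 16945 genes and a threshold of 0.05. Ratios were tested by exact permutation. Positions and lengths came from GENCODE v44lift37 on GRCh37, promoters from RefSeq. Python 3.11.15, numpy 2.4.6 and matplotlib 3.10.9 were used, and the model was tested on simulated data.

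Members and lists were chosen with earlier results of these data known. Some members and list genes are counted but not reported here by name. Named genes were otherwise all called members, 10 members known in lymphocytes or widely expressed, GNA13, its effector RhoGEFs, GAPDH, ACTB and up to 3 called genes of each further list with the widest differences; others named (ECT2, TIAM1, BCR, PREX1, RAC1, RHOH, ELMO1, LRCH1, BTK, CYFIP1, CYFIP2 and WAS, and all uncalled members) were chosen after their values were seen. The alternatives comprised fitting without a filter or with one at the median level, pseudocounts of 1 and 10, quantile normalization, median centring, the replicate block, no variance trend, a robust prior, voom weights on recovered reads, and each library left out.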

Additional observations from a re-analysis of the deposited data

How the results depend on the processing

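The count of called members, 9, became 3 with no filter, 2 with no mean-variance trend and 15 with median centring; the other 7 alternatives with 4 libraries gave 8 to 10. The count over all genes, 5037, became 1999 with no filter, 2718 with no trend and 6235 with median centring. The members' median difference, 0.02, became 0.079 with the filter at the median level (18 members left), 0.22 with median centring (all genes 0.18) and -0.032 with voom. Leaving out any library gave 0 called members and 0 called genes (1 residual degree of freedom, with the lone library assumed to vary like the others) and medians from -0.011 to 0.10, the highest without GNA13-deficient replicate 2; the causes were not tested beyond the lost degree of freedom. Replicate numbers are shared between genotypes and no source pairs them; libraries of one number had correlated deviations from their group means (0.453 over 8473 genes), and with the replicate block 10 members (ARHGEF6 added, adjusted p = 0.0277) and 6616 genes were called; outside the members, ARHGEF1 (adjusted p = 0.0391), GAPDH (0.0022) and ACTB (0.00907) then passed too.

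Among the members reported by name, the differences that reversed were all uncalled. Under quantile normalization ARHGEF18 was -0.0064, ARHGEF2 -0.017, DOCK3 0.10, DOCK4 0.24 and VAV2 0.032; under median centring DOCK11 was 0.037, DOCK4 0.18, DOCK8 0.20 and VAV2 0.18; with voom ARHGEF18 was -0.0003; and with a pseudocount of 10 DOCK3 was 0.061. With 1 library left out, DOCK3 ranged from -1.59 to 1.15, DOCK4 from -0.22 to 0.17, DOCK8 from -0.14 to 0.11 and VAV3 from -0.013 to 0.17. Counts of reads limit ARHGEF5, ARHGEF5L, ARHGEF10, ARHGEF16 and DOCK3, each with at most 14 reads in every library.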
